A study of Vitis vinifera with 27 samples.

Results

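The heat shock proteins and heat stress factors of ripening grape berries were followed as every gene whose closest-protein description, or whose first KEGG entry (its class in the KEGG database of gene functions), named a heat shock protein, a heat stress transcription factor or the HSP20 family. This rule took 114 of the 28940 genes in the expression table; 80 were found by their KEGG entry and 56 by their description, with 22 found by both. By role they were 55 small heat shock proteins (small HSPs, the HSP20 family), 24 HSP70 chaperones, 5 HSP90 chaperones, 5 heat stress factors, 1 HspQ-type gene and 24 others. These 24 had no KEGG entry or one outside the heat shock classes, and a description shared with genes of other KEGG classes. The 5 heat stress factors had no KEGG entry either. Levels are FPKM, the number of sequenced fragments of a gene corrected for transcript length and library size, and 91 of the 114 genes reached an FPKM of 1 in at least 3 of the 27 libraries and were tested: 43 small HSPs, 17 HSP70s, all 5 HSP90s, 3 heat stress factors, the HspQ-type gene and 22 of the 24 others. Of the 23 that were not tested, 6 were listed at 0 in every library.

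The berries came from field-grown Cabernet Sauvignon vines, and the question was how exposing clusters to sunlight changes the berry transcriptome. In LR-V vines the basal leaves of the cluster-bearing shoots were removed at véraison, the onset of colouring; in LM-V vines the same leaves were left on the plant and tied aside at véraison; C vines were untreated. Each treatment was sampled at 3 stages of the E-L scale of grapevine growth, E-L 36 (berries part-way through sugar gain), E-L 37 (nearly ripe) and E-L 38 (harvest ripe), with 3 biological replicates in each of the 9 groups, named A, B and C. Every library was made from berries whose seeds had been taken out, picked on both the sunny and the shaded side of clusters between 10:00 and 11:00. Stage and sampling day cannot be told apart.

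Small HSPs bind proteins that are beginning to unfold and hold them in a soluble state without using ATP, whereas HSP70 and HSP90 use ATP to refold and mature their client proteins. Heat stress factors are transcription factors that bind heat shock elements in promoters, and some of them switch these genes on when a cell is heated. Whether the factors followed here do so was not tested. In plants many small HSP genes are nearly silent in unheated leaves, and some are also switched on in maturing seeds without any heat; several HSP70s and HSP90s are, in contrast, housekeeping chaperones present in every cell.

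The libraries had closely similar depth, between 0.918 and 1.038 times their common scale, and 16516 to 17698 genes at an FPKM of 1 or more. They differed in seed storage transcripts. The summed FPKM of 2 seed storage protein genes was 17.54 to 63.14 in 6 libraries (LR-V A at E-L 36, B and C at E-L 37, A and C at E-L 38, and LM-V B at E-L 37) and 0 to 6.03 in the other 21, C libraries included; these defining genes were at 0 in 7 and 10 libraries. The whole list of 10 seed markers summed to 24.1 to 68.4 FPKM in C, 61.3 to 589 in LR-V and 31.2 to 84.8 in LM-V at E-L 38, where none of the 10 passed in either treatment (2 at an unadjusted p under 0.05 in LR-V). At E-L 36 the same list summed to 92.2 to 130.2 FPKM in C and 284 to 671 in LR-V, without overlap. There 1 marker was called higher, while the storage pair summed to 0.26 FPKM in LR-V B. The list and the pair thus do not divide the libraries alike, and whether either marks seed RNA was not tested. Libraries are called seed-rich by the pair alone. LR-V against C was also fitted without the 6 libraries; this left 1 LR-V library at E-L 37 and 1 at E-L 38, each assumed to vary like the other groups.

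Small HSP transcripts fell late in ripening. Between E-L 37 and E-L 38 in untreated berries, 26 of the 43 tested fell and none rose, with a median log2 fold change of -2.04; the median over all 19761 genes tested was -0.065. Over all classes 52 of 91 members passed the test in this step (17 higher, 35 lower), where 28.5% of all genes tested did. The summed FPKM of all small HSPs was 1406, 1815 and 2071 in the E-L 36 libraries and 1480, 1833 and 2923 at E-L 37. At E-L 38 it was 202, 343 and 522, below every earlier library. The 7 tested green tissue markers all lay below 0 in the same step, 4 of them called lower (median -0.68; the 9 on the list summed to 106 to 149 FPKM at E-L 37 and 54.7 to 62.1 at E-L 38), and their part in the small HSP result was not tested. In these bulk samples fewer cells of a type and less RNA per cell cannot be told apart.

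**Figure D1:**
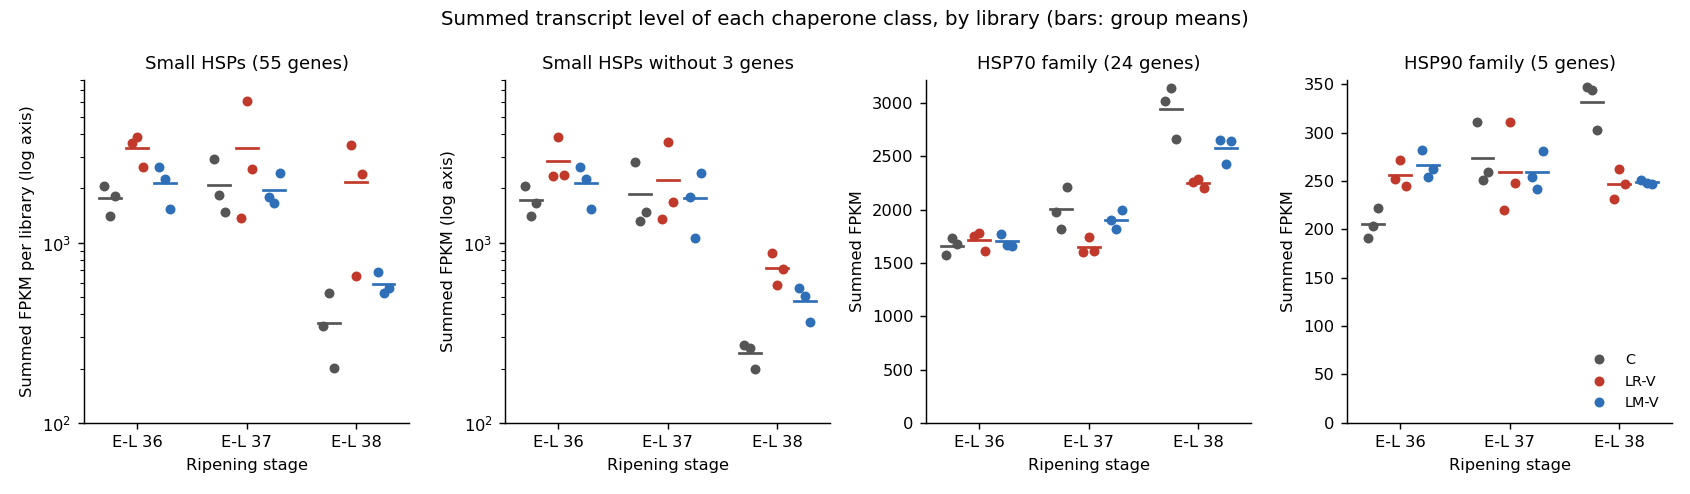
Summed FPKM per library (points) and group means (bars) of all small HSPs, of the small HSPs without the 3 genes highest in the seed-rich libraries (both on log axes), of HSP70s and of HSP90s, by E-L stage and treatment. Untreated small HSP sums drop from 1480 to 2923 at E-L 37 to 202 to 522 at E-L 38, while HSP70 sums climb to between 2667 and 3142.

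The small HSP pool was carried by few genes, since 3 genes made up 56.8% and 5 genes 69.9% of the class's mean FPKM. The most abundant, VIT_212s0035g01910, stood at 721, 502 and 643 FPKM in C at E-L 36, at 853, 381 and 403 at E-L 37 and at 56.3, 44.0 and 48.4 at E-L 38. Its level thus did not overlap between E-L 38 and either earlier stage, and the log2 fold change from E-L 37 to E-L 38 was -3.34 (SE 0.38, adjusted p = 2.45e-06).

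The next most abundant of the tested class, VIT_204s0008g01520, is one of 12 small HSP genes in a single run of gene IDs on chromosome 4. In C it measured 448, 343 and 323 FPKM at E-L 36 and 669, 297 and 360 at E-L 37. It was down to 26.8, 24.4 and 16.5 at E-L 38 (log2 fold change -4.17, SE 0.40, adjusted p = 3.61e-07). Its neighbour VIT_204s0008g01580, described as a class II small HSP, went from 83.6, 47.3 and 66.8 FPKM at E-L 37 to 3.63, 4.16 and 2.24 (-3.94, SE 0.41, adjusted p = 7.82e-07). VIT_213s0019g00860, described as a peroxisomal small HSP, went from 85.6, 36.9 and 40.5 FPKM to 3.44, 7.38 and 4.17 (-3.16, SE 0.43, adjusted p = 1.88e-05). In none of these 3 genes did the C levels of E-L 37 and E-L 38 overlap. Another 20 small HSP genes lie in a run of IDs on chromosome 13; near-identical copies in such runs may share reads, so single copies are less certain than the class.

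Not every small HSP followed this course. VIT_213s0019g03170 rose from 21.8, 30.8 and 26.1 FPKM at E-L 36 to 52.6, 41.0 and 48.3 at E-L 37 (log2 fold change 0.83, SE 0.15, adjusted p = 0.000214) before returning to 32.7, 27.7 and 23.9 at E-L 38 (-0.74, SE 0.15, adjusted p = 0.000989). Its E-L 36 and E-L 38 ranges overlapped. From E-L 36 to E-L 37 in C only 5 of the 43 small HSPs rose and none fell, against 25 of 91 members (24 higher, 1 lower) and 37.5% of all genes tested; the median small HSP log2 fold change was 0.40, and 0.195 over all genes. Scaling the libraries by median of ratios brought that overall median to 0.008 and left 3 small HSPs higher, with 15 members higher and 6 lower in all.

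At harvest a number of small HSPs stood higher where clusters had been exposed at véraison. At E-L 38, 25 of 91 members differed between LR-V and C, where 17.8% of all genes tested did, and 11 of the 43 small HSPs were higher in LR-V and 1 lower; 35 of the 43 lay above 0, with a median log2 fold change of 0.90 (0.017 over all genes). In LM-V, 16 of 91 members differed from C, against 9.5% of all genes tested, with 4 small HSPs higher and 2 lower and a class median of 0.46 (-0.019 over all genes). Both comparisons use the same 3 C libraries.

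VIT_204s0008g01520 had the firmest difference. At E-L 38 its level was 26.8, 24.4 and 16.5 FPKM in C, 146, 178 and 108 in LR-V and 168, 137 and 74.6 in LM-V. Every exposed library was above every C library. The log2 fold change against C was 2.62 in LR-V (SE 0.40, adjusted p = 0.000142) and 2.38 in LM-V (SE 0.40, adjusted p = 0.000678). At E-L 37 the gene had stood at 379, 849 and 353 FPKM in LR-V and 515, 228 and 428 in LM-V, overlapping the C range, and the effect at E-L 38 exceeded that at E-L 37 by 2.40 in LR-V (SE 0.56, adjusted p = 0.0121) and 2.55 in LM-V (SE 0.56, adjusted p = 0.0143).

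Its neighbour VIT_204s0008g01580 was also higher in both treatments. The E-L 38 levels were 3.63, 4.16 and 2.24 FPKM in C, 14.8, 11.1 and 10.3 in LR-V and 22.2, 24.9 and 18.5 in LM-V. The log2 fold change against C was 1.60 in LR-V (SE 0.41, adjusted p = 0.0096) and 2.41 in LM-V (SE 0.41, adjusted p = 0.000713), and the direct comparison of LR-V with LM-V did not pass; without the 6 seed-rich libraries the LR-V difference was 1.503 (adjusted p = 0.121). Also of this run, VIT_204s0008g01530, was at 2.07, 0.27 and 1.16 FPKM in C, 5.44, 6.84 and 3.98 in LR-V and 9.13, 4.49 and 4.67 in LM-V. It was higher in both treatments (1.63, SE 0.46, adjusted p = 0.0176 and 1.74, SE 0.46, adjusted p = 0.0195); it and VIT_204s0008g01490, at 13.8, 14.8 and 17.8 in C against 30.7, 36.5 and 38.9 in LR-V, were named after their values were seen.

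The peroxisomal-type VIT_213s0019g00860 measured 3.44, 7.38 and 4.17 FPKM in C at E-L 38, 17.8, 12.99 and 13.1 in LR-V and 31.6, 21.4 and 17.8 in LM-V. Neither treatment overlapped C; the log2 fold change was 1.43 in LR-V (SE 0.43, adjusted p = 0.027) and 2.05 in LM-V (SE 0.43, adjusted p = 0.00456). The LR-V call was lost without C library A at E-L 38 (adjusted p = 0.112) and without the 6 seed-rich libraries (1.28, adjusted p = 0.181).

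For the most abundant small HSP, VIT_212s0035g01910, the E-L 38 levels were 56.3, 44.0 and 48.4 FPKM in C, 141, 183 and 123 in LR-V and 67.6, 109 and 59.2 in LM-V. The LR-V libraries lay above those of the other groups and the log2 fold change against C was 1.56 (SE 0.38, adjusted p = 0.00718). The LM-V libraries also lay above C, but that comparison did not pass the test.

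VIT_212s0028g01390, a small HSP whose description was shared with no other gene, differed in LR-V. It was at 20.5, 16.5 and 20.3 FPKM in C at E-L 38 and at 35.0, 30.2 and 50.6 in LR-V, without overlap (log2 fold change 0.95, SE 0.15, adjusted p = 0.00015). At E-L 37 the order was the opposite, with 35.1, 41.8 and 44.9 in C and 29.4, 33.8 and 25.0 in LR-V, and the change in effect between the stages was 1.41 (SE 0.21, adjusted p = 0.000343). The LM-V libraries were at 24.9, 32.1 and 23.1 FPKM at E-L 38, and LR-V exceeded LM-V by 0.50 (SE 0.15, adjusted p = 0.047). Without the 6 seed-rich libraries the differences from C and from LM-V at E-L 38 were 0.64 (adjusted p = 0.0554) and 0.18 (adjusted p = 0.801), and the change between stages 1.08 (adjusted p = 0.0556).

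**Figure D2:**
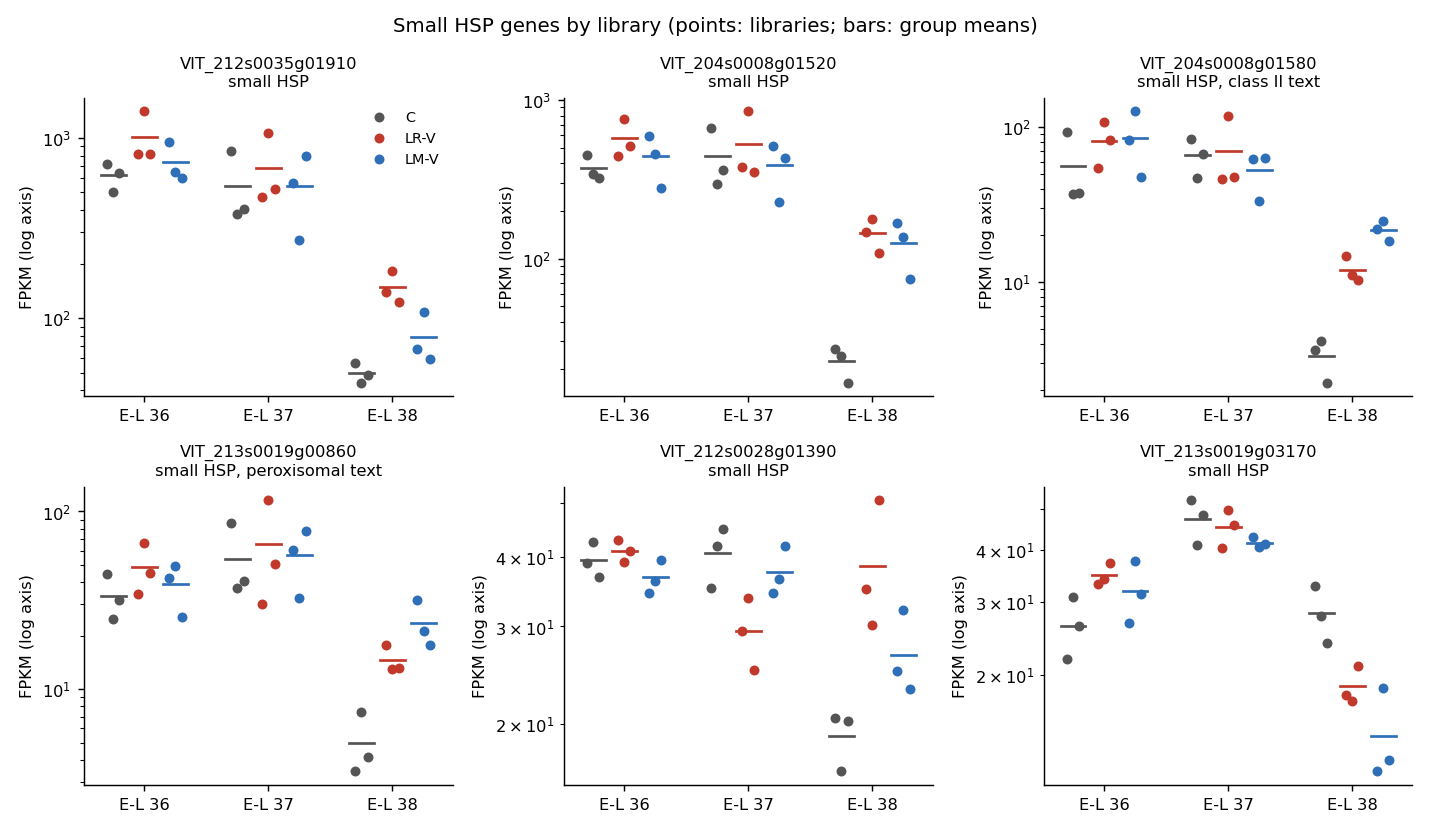
FPKM on log axes of 6 small HSPs in each of the 27 libraries, by E-L stage and treatment, with bars at group means. At E-L 38 the LR-V and LM-V points of VIT_204s0008g01520 (74.6 to 178) lie above all C points (16.5 to 26.8), and VIT_213s0019g03170 shows the opposite order.

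VIT_213s0019g03170 was the only small HSP called lower than C in both treatments at E-L 38. It stood at 32.7, 27.7 and 23.9 FPKM in C at E-L 38, at 17.9, 17.3 and 21.0 in LR-V and at 11.7, 18.6 and 12.4 in LM-V. Neither treatment overlapped C, and the log2 fold changes were -0.55 (SE 0.15, adjusted p = 0.0153) and -0.95 (SE 0.15, adjusted p = 0.00042). The LR-V difference no longer passed without C library A (adjusted p = 0.0948) or the 6 seed-rich libraries (-0.66, adjusted p = 0.149). VIT_216s0022g00510, the other small HSP called lower in LM-V, was at 16.1, 19.8 and 10.5 in C and 7.95, 6.36 and 6.32 in LM-V (-1.03, SE 0.32, adjusted p = 0.0466) and is named for completeness after its values were seen.

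Another set of small HSPs was highest in the libraries with the most seed storage transcripts. VIT_218s0001g01570 reached 600.1 FPKM in LR-V A at E-L 36, 1649 and 593 in LR-V B and C at E-L 37, 1962 and 1318 in LR-V A and C at E-L 38 and 399 in LM-V B at E-L 37. These are exactly the 6 libraries rich in the seed storage pair. In the other 21 libraries it lay between 0.26 and 387.62 FPKM, the highest being C B at E-L 37. VIT_204s0008g01610 was at 180 to 777 in the 6 libraries and at most 119 in the rest, and VIT_218s0001g01610, described as a class I small HSP, at 13.9 to 63.2 against at most 12.1. Taken as deviations from the group means over the 27 libraries, the correlation of each with the seed storage pair was 0.872, 0.878 and 0.889 in that order; 5 of 43 small HSPs exceeded 0.8 and 33 lay within 0.35 of 0. These 3 genes were named after their values were seen, and none passed a test in any comparison: for VIT_218s0001g01570 in LR-V against C at E-L 38 the log2 fold change was 3.64 with an SE of 2.79 (adjusted p = 0.414).

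**Figure D3:**
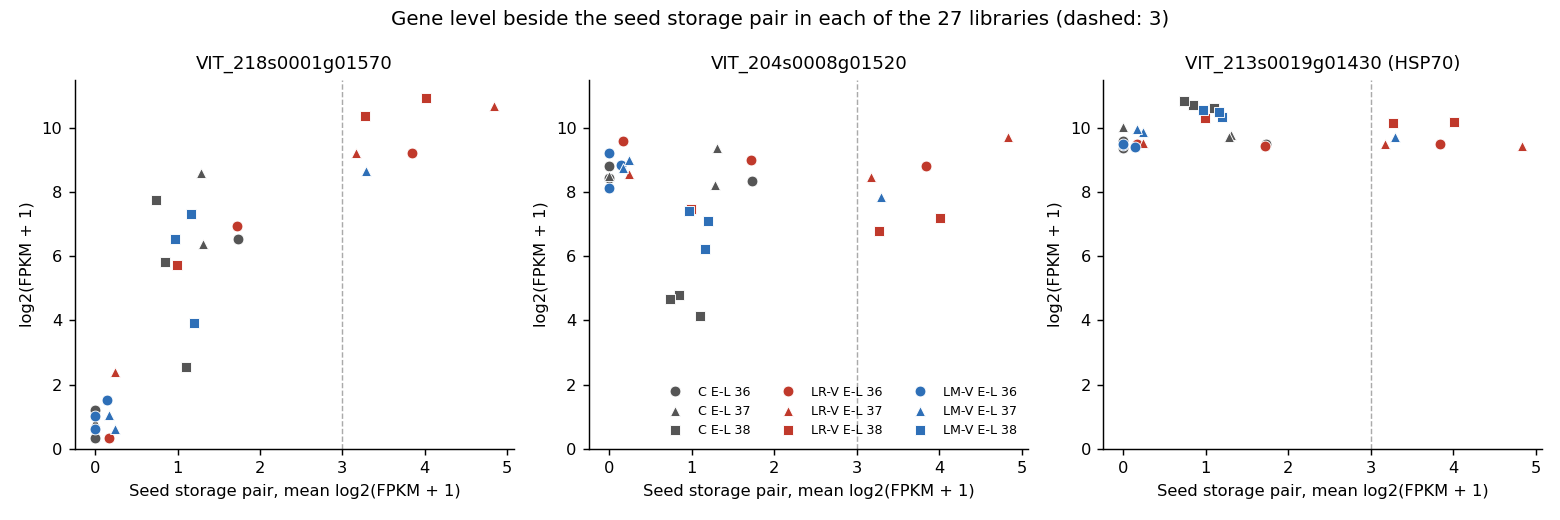
Level of 3 members in each library, as log2(FPKM + 1), against the mean log2 level of the 2 seed storage genes. The dashed line at 3 separates the 6 libraries rich in these 2 transcripts. VIT_218s0001g01570 is highest in those 6, while VIT_204s0008g01520 and the HSP70 VIT_213s0019g01430 do not separate at the line.

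The summed level of the class has to be read with these genes in mind. They made up 74.7% and 70.4% of the summed small HSP FPKM in LR-V A and C at E-L 38 but 11% in LR-V B, and 49.9% in C library B. Without them the E-L 38 sums were 198 to 269 in C, 582 to 879 in LR-V and 364 to 560 in LM-V, with no overlap of either treatment with C. Among the 11 small HSPs that were higher in LR-V at E-L 38, the correlation with the seed storage pair ran from -0.17 to 0.52.

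Some differences rested on the seed-rich libraries. VIT_213s0019g03000 was at 26.7, 32.3 and 14.2 FPKM in C at E-L 38 and at 186, 32.3 and 113 in LR-V, with library B level with the highest C library (log2 fold change 1.89, SE 0.62, adjusted p = 0.0401; 0.47, adjusted p = 0.767 without the 6 seed-rich libraries). VIT_218s0089g01270 measured 3.45, 3.11 and 0.00 in C and 41.4, 4.48 and 22.7 in LR-V (2.74, SE 0.77, adjusted p = 0.0187; 1.06, adjusted p = 0.638 without them). VIT_213s0019g02930 behaved alike, at 11.2, 19.2 and 9.32 in C against 75.8, 19.2 and 61.9. Each call on VIT_213s0019g03000 and VIT_218s0089g01270 also ended without LR-V A alone (adjusted p = 0.187 and 0.0989).

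Leaving out all 6 seed-rich libraries, and so 2 of the 3 LR-V libraries at E-L 38, left fewer members past the test. The share of all genes passing in that fit was not computed, so the drop cannot be read as a result about the members. The log2 fold change against C was then 2.95 for VIT_204s0008g01520 and 1.87 for VIT_212s0035g01910. Leaving out LR-V C alone left 5 small HSPs higher. The seed storage pair summed to 2.84 to 3.97 FPKM in LM-V and 1.46 to 3.21 in C at E-L 38, and 4 or 5 small HSPs were higher in LM-V with any single library left out. Markers of green tissue also moved with both treatments: 9 marker genes summed to 54.7 to 62.1 FPKM in C at E-L 38, 158 to 455 in LR-V and 106 to 135 in LM-V, with 5 and 2 of the 7 tested called higher, and their part in the small HSP result was not tested.

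The drop from E-L 37 to E-L 38 can be set out within each treatment for the 22 of the 26 declining small HSPs that were above 0 in all group means. The fold between the means was 14.0 at the median in C (1.69 to 198), 4.41 in LR-V (0.762 to 41.1) and 3.75 in LM-V (1.41 to 20.9), and the ranges of the stages were apart for 22, 16 and 20 of the genes. These genes were picked on the C step, so the lower medians and the lower counts of ranges apart are a description. For all genes tested, the share with ranges apart was not computed. The change in treatment effect between the stages was tested directly in 7 of 91 members called for LR-V (7.7% of all genes tested) and 9 for LM-V (3.81% of all genes tested); the small HSPs among them were VIT_204s0008g01520 and VIT_212s0028g01390 for LR-V, and VIT_204s0008g01520, VIT_204s0008g01580 and, in the opposite direction, VIT_213s0019g03170 for LM-V. Without the 6 seed-rich libraries, which leaves 1 LR-V library at E-L 37 and 1 at E-L 38, the LR-V changes no longer passed in limma. How many of all genes still passed there was not computed.

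**Figure D4:**
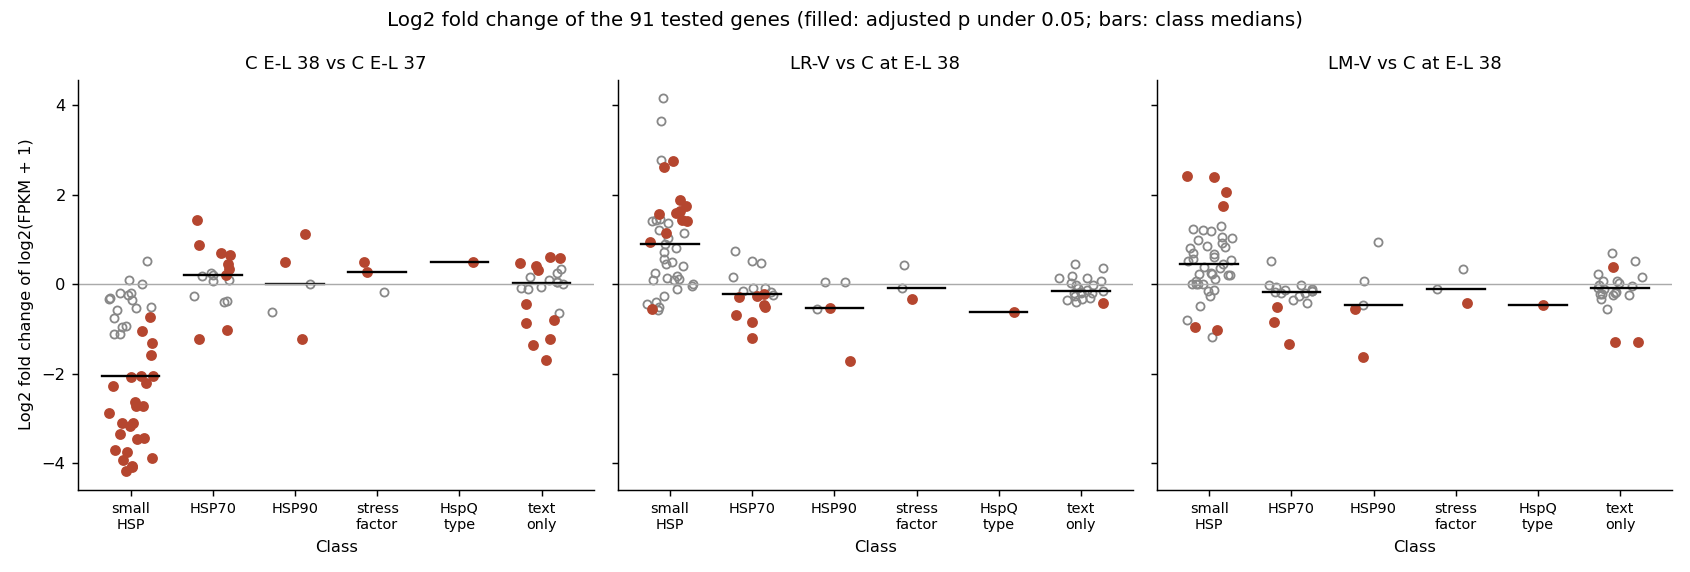
Log2 fold change of each of the 91 tested members (points; filled where adjusted p is under 0.05) by class, for C at E-L 38 against E-L 37 and for each treatment against C at E-L 38, with bars at class medians. Small HSPs lie mostly below 0 in the ripening step (median -2.04) and mostly above 0 in LR-V (0.90) and LM-V (0.46), while HSP70 medians in the exposed berries are -0.23 and -0.18.

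Earlier in ripening no small HSP passed limma's test in either treatment. At E-L 36, 3 of 91 members differed between LR-V and C (5.54% of all genes tested) and no small HSP did in limma, although 40 of 43 lay above 0 with a median of 0.67, 8 had an unadjusted p under 0.05, and a rebuilt fold-and-probability rule after the study's own called 7 higher. The summed small HSP FPKM there was 2614 to 3826 in LR-V and 1406 to 2071 in C, without overlap. Seed markers (284 to 671 FPKM in LR-V and 92.2 to 130.2 in C; 10 of 10 above 0, 1 called higher) and green tissue markers (301 to 458 FPKM in LR-V and 149 to 207 in C; 2 of 7 called higher) also did not overlap there, and their part in this was not tested. In LM-V at E-L 36 no member passed limma's test (0.0708% of all genes tested did; 8 members had an unadjusted p under 0.05 and the rebuilt rule called 4). At E-L 37 the sums overlapped, 5 of 91 members differed in LR-V by limma (5.01% of all genes tested), none of them a small HSP, while the rebuilt rule called 3 small HSPs higher; limma called none in LM-V (0.572% of all genes tested; 2 members at an unadjusted p under 0.05 and 0 by the rebuilt rule).

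Among HSP70s more genes rose than fell late in ripening, and those that differed in exposed berries at harvest were lower. In C from E-L 37 to E-L 38, 7 of the 17 tested rose and 2 fell, with a class median of 0.195 (10.9% of all genes tested rose and 17.6% fell). At E-L 38, 8 of 17 were lower in LR-V and none higher (median -0.23), where 7.66% of all genes tested were lower, and 3 of 17 were lower in LM-V (median -0.18), where 4.9% were. The summed HSP70 FPKM at E-L 38 was 2667 to 3142 in C, 2199 to 2287 in LR-V and 2428 to 2653 in LM-V. All 8 HSP70s that were lower in LR-V lay below C without overlap. These 8 are the genes called, so their separation restates the call; without the 6 seed-rich libraries 3 of them passed.

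VIT_213s0019g01430, an HSP70, was the most abundant member of all with a mean of 1000.1 FPKM. In C it stood at 659, 768 and 717 FPKM at E-L 36, 875, 845 and 1048 at E-L 37 and 1691, 1847 and 1561 at E-L 38. The E-L 38 libraries lay above all others (log2 fold change from E-L 37 0.88, SE 0.09, adjusted p = 2.61e-07), whereas the E-L 37 step of 0.36 no longer passed after median-of-ratios scaling (0.13, adjusted p = 0.301). In LR-V it was at 740.3, 693 and 725 at E-L 37 and 1171, 1274 and 1131 at E-L 38, below C at both stages (-0.35, SE 0.09, adjusted p = 0.0215 and -0.51, SE 0.09, adjusted p = 0.000294). The LM-V libraries measured 1512, 1285 and 1434 at E-L 38, all below C, and missed the threshold (-0.27, SE 0.09, adjusted p = 0.0533). Without the 6 seed-rich libraries the LR-V differences were -0.31 (adjusted p = 0.185) at E-L 37 and -0.41 (adjusted p = 0.0878) at E-L 38.

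VIT_208s0007g00130, another HSP70, changed direction with stage. At E-L 36 it stood at 26.4, 33.5 and 31.2 FPKM in C and 71.2, 77.2 and 49.9 in LR-V, with 50.6, 44.6 and 38.3 in LM-V. At E-L 37 it was at 29.1, 25.5 and 27.2 in C and 22.6, 23.1 and 27.1 in LR-V, which overlapped. At E-L 38 it was at 50.9, 46.1 and 37.8 in C, 16.7, 20.0 and 20.4 in LR-V and 15.4, 17.9 and 17.7 in LM-V. LR-V was thus higher than C at E-L 36 (1.08, SE 0.14, adjusted p = 0.000101) and lower at E-L 38 (-1.19, SE 0.14, adjusted p = 6.37e-06), and the change of -2.27 between these stages passed its own test (SE 0.20, adjusted p = 2.48e-07). LM-V was lower at E-L 38 (-1.35, SE 0.14, adjusted p = 2.82e-06) and its effect changed by -1.88 from E-L 36 (SE 0.20, adjusted p = 6.91e-06). Without the 6 seed-rich libraries LR-V B alone gave -1.12 at E-L 38 (adjusted p = 0.00724, its spread taken from the other groups).

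Over all members, the LR-V effect differed between E-L 36 and E-L 38 in 11 of 91 (2 higher, 9 lower; 8.35% of all genes tested) and between E-L 36 and E-L 37 in 2 (4.54% of all genes tested), VIT_208s0007g00130 and the HSP90 VIT_200s0194g00030. The LM-V effect differed between E-L 36 and E-L 38 in 8 (1 higher, 7 lower; 3.1% of all genes tested) and between E-L 36 and E-L 37 in none (0.0405% of all genes tested; 8 members at an unadjusted p under 0.05 in limma, the only tool run on it).

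VIT_206s0004g04470 had the largest ripening increase of the HSP70s, from 35.8, 41.2 and 43.2 FPKM in C at E-L 36 through 67.6, 55.01 and 75.7 to 196, 198 and 149 at E-L 38. The step into E-L 38 was 1.44 (SE 0.13, adjusted p = 7.17e-08). LR-V reached 100.4, 100.5 and 98.8 and LM-V 131, 123 and 123 at that stage, both entirely below C (-0.84, SE 0.13, adjusted p = 9.92e-05 and -0.51, SE 0.13, adjusted p = 0.0135); without C library B the LM-V difference no longer passed (adjusted p = 0.0752).

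VIT_218s0041g01230 showed the same order at lower level, with 5.75, 6.66 and 6.83 FPKM in C at E-L 36, 18.8, 18.3 and 17.0 at E-L 37 and 29.6, 28.2 and 28.8 at E-L 38. LR-V was at 19.1, 14.9 and 18.9 and LM-V at 16.2, 15.9 and 15.0 at E-L 38, close to the C level at E-L 37 and below every C library of E-L 38. The differences from C were -0.69 (SE 0.13, adjusted p = 0.000586) and -0.84 (SE 0.13, adjusted p = 0.000175).

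**Figure D5:**
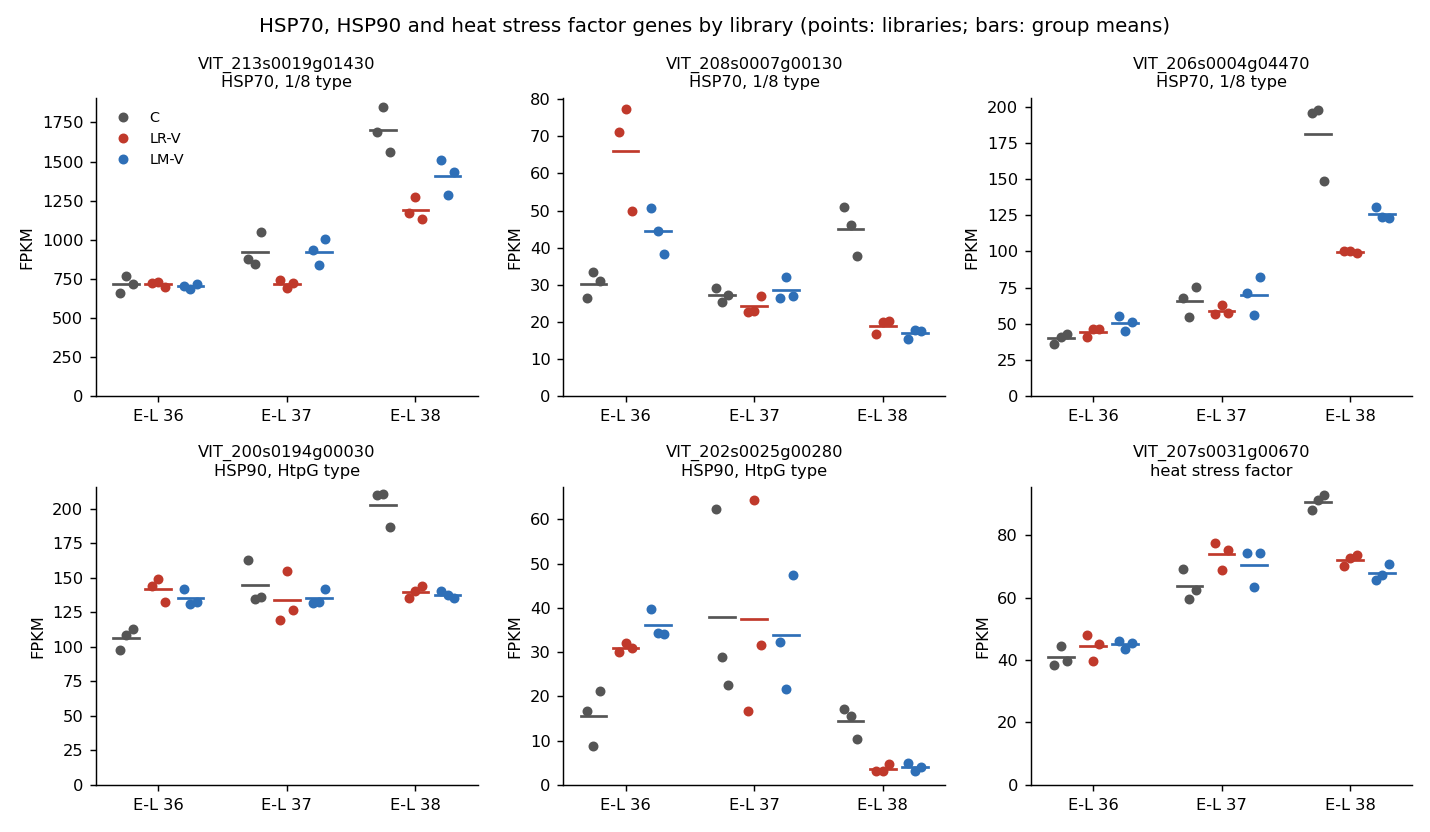
FPKM (linear axes from 0) of 3 HSP70s, 2 HSP90s and 1 heat stress factor in each library by E-L stage and treatment, with bars at group means. At E-L 38 the C points of VIT_213s0019g01430 (1561 to 1847) lie above the LR-V points (1131 to 1274), and VIT_208s0007g00130 turns from higher to lower in exposed berries between E-L 36 and E-L 38.

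Organelle and secretory-pathway HSP70s were among the LR-V calls. VIT_200s0415g00030, described as the mitochondrial HSP70, was at 79.9, 72.1 and 86.7 FPKM in C and 46.8, 66.7 and 52.8 in LR-V at E-L 37 (-0.53, SE 0.13, adjusted p = 0.0249), and at 117, 117 and 94.1 against 83.8, 82.5 and 69.4 at E-L 38 (-0.47, SE 0.13, adjusted p = 0.0166). BiP is the HSP70 of the endoplasmic reticulum. VIT_202s0025g02140, of the BiP type, was at 112, 109 and 123 in C and 94.6, 97.1 and 100.3 in LR-V at E-L 37 (-0.24, SE 0.07, adjusted p = 0.0404) and at 123, 126 and 112 against 96.2, 107 and 97.1 at E-L 38 (-0.26, SE 0.07, adjusted p = 0.00755). Another BiP-type gene, VIT_216s0098g01580, was at 66.5, 67.6 and 71.6 in C and 53.5, 55.5 and 54.6 in LR-V at E-L 37 (-0.32, SE 0.07, adjusted p = 0.0109). The last of the 3 tested BiP-type genes, VIT_214s0060g02340, was not called there, with means of 16.7 in C and 16.9 in LR-V. In the genes called none of the groups overlapped. The 4 HSP70 calls at E-L 37 fell to 1 after median-of-ratios scaling and to 0 in a fit of the compared groups alone, where 5 had an unadjusted p under 0.05. Without the 6 seed-rich libraries the E-L 38 differences of VIT_200s0415g00030 and VIT_202s0025g02140 were -0.40 (adjusted p = 0.206) and -0.17 (adjusted p = 0.411). Flesh and skin markers moved at E-L 37 too: the 18 on the list summed to 589 to 1292 FPKM in LR-V and 2061 to 2810 in C, with 5 of the 12 tested called lower and 2 higher, and their part in the HSP70 result was not tested.

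VIT_206s0004g04510, described as heat shock cognate 70, ran against the class in ripening, from 244, 208 and 204.4 FPKM in C at E-L 36 to 94.5, 90.2 and 75.2 at E-L 37 (-1.33, SE 0.15, adjusted p = 9.7e-07). In that step 8 other HSP70s rose, where 27.6% of all genes tested did. Under median-of-ratios scaling 5 were higher and 3 lower. At E-L 38 it was at 72.0, 57.0 and 99.2 in LR-V and 49.2, 53.3 and 51.6 in LM-V, and LR-V exceeded LM-V (0.52, SE 0.15, adjusted p = 0.0381). Without LR-V C that difference no longer passed (adjusted p = 0.284).

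Of the 5 HSP90s, 2 were lower than C at harvest in both treatments and none was higher, where 7.66% of all genes tested were lower in LR-V and 4.9% in LM-V. In C, 3 rose into E-L 37 (with median-of-ratios scaling, 1 rose and 1 fell), and 2 rose and 1 fell into E-L 38, steps in which 37.5% and 28.5% of all genes tested passed. VIT_200s0194g00030, an HSP90 with the KEGG entry HtpG and the class's most abundant, measured 97.7, 108 and 113 FPKM in C at E-L 36, 163, 134 and 136 at E-L 37 and 210.2, 210.3 and 187 at E-L 38. In LR-V it stayed within 119 and 155 at all stages and in LM-V within 131 and 142. LR-V was above C without overlap at E-L 36 (144, 149 and 132; 0.41, SE 0.09, adjusted p = 0.00649) and below it at E-L 38 (135, 141 and 144; -0.53, SE 0.09, adjusted p = 0.000232). LM-V at E-L 38 measured 141, 137 and 135 (-0.55, SE 0.09, adjusted p = 0.000325). The LR-V effect changed by -0.94 from E-L 36 to E-L 38 (SE 0.12, adjusted p = 3.57e-05), and with LR-V B as the one LR-V library left at E-L 38 the difference was -0.52 (adjusted p = 0.0208, its spread taken from the other groups).

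VIT_202s0025g00280, of the same HSP90 type, varied more between replicates, with 62.3, 28.9 and 22.6 FPKM in C at E-L 37 and 17.2, 15.6 and 10.5 at E-L 38. Harvest-stage levels were 3.23, 3.13 and 4.73 in LR-V and 4.86, 3.13 and 3.94 in LM-V, below every C library. The log2 fold changes were -1.71 (SE 0.40, adjusted p = 0.00472) and -1.62 (SE 0.40, adjusted p = 0.0121), the latter lost without LM-V B (adjusted p = 0.0574). Endoplasmin, the HSP90 of the endoplasmic reticulum, had 2 genes: VIT_218s0001g14500 stayed between 62.0 and 85.1 FPKM in all 27 libraries and passed no test, and VIT_216s0098g00910 rose in C from 18.9, 16.0 and 25.0 at E-L 37 to 51.3, 43.0 and 38.8 at E-L 38 (1.13, SE 0.20, adjusted p = 0.000169). LR-V was then at 23.8, 42.3 and 25.9 (-0.55, SE 0.20, adjusted p = 0.0534).

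Of the 5 heat stress factors, which had no KEGG entry and are named by description alone, 3 were tested. The HSF24-like match of VIT_207s0031g00670 was shared by 3 genes. VIT_207s0031g00670, described as an HSF24-like factor, rose in C from 38.5, 44.5 and 39.8 FPKM at E-L 36 through 69.3, 59.4 and 62.5 to 88.0, 91.3 and 92.8 at E-L 38, with no overlap between stages. The steps were 0.63 (SE 0.08, adjusted p = 2.72e-06) and 0.51 (SE 0.08, adjusted p = 4.66e-05). At E-L 38 it was at 70.1, 72.6 and 73.7 in LR-V and 65.6, 67.2 and 70.6 in LM-V (-0.33, SE 0.08, adjusted p = 0.00554 and -0.41, SE 0.08, adjusted p = 0.00151). Under leaf removal it was at 77.6, 68.9 and 75.1 at E-L 37, so that the rise into E-L 38 seen in C was not seen there, and the change in effect was -0.54 for LR-V (SE 0.11, adjusted p = 0.00402) and -0.56 for LM-V (SE 0.11, adjusted p = 0.00602). Without the 6 seed-rich libraries the LR-V difference at E-L 38 was -0.32 (adjusted p = 0.105). VIT_201s0011g05970, described as a factor of the A-8 type, stayed between 16.6 and 26.7 FPKM and passed in the C step into E-L 38 alone (0.28, SE 0.09, adjusted p = 0.0306).

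VIT_201s0011g00880, whose KEGG entry is HspQ, a bacterial heat shock protein, stood at 15.8, 18.8 and 17.1 FPKM in C at E-L 37 and 26.0, 24.7 and 23.3 at E-L 38. LR-V was at 16.8, 16.5 and 13.8 at E-L 38 (-0.62, SE 0.14, adjusted p = 0.00378) and LM-V at 18.2, 14.7 and 20.7 (-0.46, SE 0.14, adjusted p = 0.0447), both below C without overlap. The LM-V difference no longer passed without LM-V B (adjusted p = 0.232), nor the LR-V difference without the 6 seed-rich libraries (-0.55, adjusted p = 0.0999).

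LR-V and LM-V differed from each other in few members. No member passed in limma, the only tool run on this contrast, at E-L 36 (0.0354% of all genes tested; 6 at an unadjusted p under 0.05) or E-L 37 (0% of all genes tested; 6 at an unadjusted p under 0.05). At E-L 38, 7 of 91 did (7.45% of all genes tested), namely the small HSP VIT_212s0028g01390, the HSP70 VIT_206s0004g04510 and 5 genes whose heat shock name rests on the description alone. A fit of the compared groups alone called none of the 7.

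The 24 genes set apart for their shared descriptions need a separate reading. Of these, 17 carry one wheat HSP83 description and 6 one apple heat stress factor A-1d description, each with the same match and score, whereas their own KEGG entries, where present, name proteins such as a thioredoxin, an RNA polymerase III subunit, a disease resistance protein and a ubiquitin-conjugating enzyme. Of all genes measured, 13409 of 26674 genes with a match shared match and score with another gene. These members showed no common direction. From E-L 37 to E-L 38 in C, 5 of the 22 tested rose and 6 fell, where 10.9% of all genes tested rose and 17.6% fell. VIT_219s0014g02390, the clearest of them, was at 24.4, 21.5 and 31.0 FPKM in C at E-L 38, 15.9, 34.9 and 19.3 in LR-V and 7.38, 9.01 and 14.2 in LM-V, where it lay below C (-1.28, SE 0.23, adjusted p = 0.00116). VIT_219s0015g01810 was in contrast above C in LM-V, at 118, 102 and 113 against 82.7, 86.2 and 83.6 (0.39, SE 0.09, adjusted p = 0.00741).

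VIT_209s0054g00990 was at 3.93, 2.25 and 0.80 FPKM in LM-V and 7.43, 5.78 and 6.35 in C at E-L 38 (-1.29, SE 0.35, adjusted p = 0.0213). VIT_207s0005g04630, whose KEGG entry is a nucleolar protein of ribosome assembly, was lower in LR-V than in C at E-L 38 (-0.42, SE 0.10, adjusted p = 0.00671), and VIT_209s0054g01070 lower in LR-V than in LM-V (-0.88, SE 0.24, adjusted p = 0.0261). At the earlier stages VIT_206s0004g02680 was lower in LR-V at E-L 36 (-0.73, SE 0.22, adjusted p = 0.0491) and VIT_217s0000g06790, whose KEGG entry is a monooxygenase, at E-L 37 (-1.11, SE 0.27, adjusted p = 0.0185). Both were lost with 1 library left out (adjusted p = 0.208 without C C at E-L 36 and 0.0897 without LR-V A at E-L 37).

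Partners of the chaperones outside the rule are given by list, beside the shares of all genes tested that differed from C at harvest, 17.8% with LR-V and 9.5% with LM-V. DnaJ proteins deliver clients to HSP70, and of 18 tested at E-L 38, 1 was higher and 4 were lower in LR-V, with a median of -0.073; 1 was higher in LM-V. ClpB disaggregases, which pull apart protein aggregates, had no call in 7 tested in either treatment at any stage (3 at an unadjusted p under 0.05 in LR-V at E-L 38), and neither had the 4 multiprotein-bridging factor 1 genes, heat-responsive co-activators (2 at an unadjusted p under 0.05 there), nor the 3 ascorbate peroxidases (2 there). Of 31 peptidyl-prolyl isomerases 4 were higher and 5 lower in LR-V, and 2 were lower in LM-V. Chaperonins, which fold proteins in a closed chamber, had 2 of 13 higher in LR-V. In untreated berries 7 of 11 genes of endoplasmic reticulum folding and 3 of 3 ascorbate peroxidases fell from E-L 37 to E-L 38, where 17.6% of all genes tested did.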

How the data were processed

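RNA of deseeded berries from 27 samples (9 groups of 3 biological replicates) was sequenced. The authors deposited FPKM values per gene, with KEGG entries and closest-protein descriptions; the submitters' processing notes name Bowtie2 2.2.5, and for the FPKM step no program is given in the sources used here. Read counts were not used here, so depth was read only as a relative scale. All analysis was on log2(FPKM + 1), and fold changes are on that scale, which understates changes of low genes. Genes with an FPKM of 1 in at least 3 libraries (19761) were fitted with limma 3.58.1 and statmod 1.5.0 in R 4.3.3, with 9 group means and a trended, robust variance; adjusted p is Benjamini-Hochberg over all genes, with a threshold of 0.05. The script was tested on simulated data and recovered 83 of 100 genes changed by a factor of 2 and 93 of 100 changed by 4 in LR-V against C at E-L 38, with 9 of 19561 unchanged genes called.

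The members and gene lists were chosen with earlier results of these data known. Named genes are, per role, the member with the highest mean FPKM; per treatment comparison with C, the 8 called with the smallest adjusted p and the 3 highest and 3 lowest called fold changes; the 4 smallest adjusted p in other contrasts; and every heat stress factor called. Other members were named after their values were seen, also where this is not said beside them. Over all pairs of groups, same-letter deviations correlated at -0.46 to 0.33 (median -0.010) and other-letter deviations at -0.43 to 0.49 (median 0.003). Pairs of stages within a treatment were not examined apart. Whether a letter marks the same vines across stages was thus not tested, and the main fits treat all libraries as unpaired. Alternatives were a pseudocount of 0.1, no filter, an FPKM of 5 in at least 3 libraries, median-of-ratios scaling, only the groups compared, a replicate block, a seed storage covariate, each library left out, and a rebuilt NOISeq-type rule (fold of 2, probability of 0.8); leaving out the 6 seed-rich libraries was added after seeing the data. Of the members, 19 matched a RefSeq gene and none had a symbol, so IDs are given as deposited. Replicates pool berries of several vines, and p-values measure the spread between these pools.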

Additional observations from a re-analysis of the deposited data

Results flagged for a closer look

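These members are listed because the effect of a treatment differed between stages by a test of the difference itself (limma, log2 scale, effect at the later stage minus effect at the earlier one; the stages share no library, and LR-V and LM-V share the C libraries). The HSP70 VIT_208s0007g00130 recurred in every pair of stages but one: its LR-V effect changed by -1.25 from E-L 36 to E-L 37 (adjusted p = 0.00151), by -1.03 from E-L 37 to E-L 38 (adjusted p = 0.00304) and by -2.27 from E-L 36 to E-L 38 (adjusted p = 2.48e-07), and its LM-V effect by -1.41 (adjusted p = 0.00033) and -1.88 (adjusted p = 6.91e-06) over the latter 2 spans. The HSP90 VIT_200s0194g00030 changed by -0.53 from E-L 36 to E-L 37 (adjusted p = 0.0165) and by -0.94 from E-L 36 to E-L 38 (adjusted p = 3.57e-05) in LR-V, and by -0.90 from E-L 36 to E-L 38 in LM-V (adjusted p = 0.000153).

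The HSP70 VIT_218s0041g01230 changed from E-L 36 to E-L 38 by -0.89 for LR-V (adjusted p = 0.00283) and by -0.95 for LM-V (adjusted p = 0.00328), and VIT_206s0004g04470 by -0.99 in LR-V (adjusted p = 0.00126). The heat stress factor VIT_207s0031g00670 changed from E-L 37 to E-L 38 by -0.54 for LR-V (adjusted p = 0.00402) and by -0.56 for LM-V (adjusted p = 0.00602).

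Among small HSPs, the E-L 37 to E-L 38 change was 2.40 under LR-V (adjusted p = 0.0121) and 2.55 under LM-V (adjusted p = 0.0143) for VIT_204s0008g01520, 1.41 in LR-V for VIT_212s0028g01390 (adjusted p = 0.000343) and 2.74 in LM-V for VIT_204s0008g01580 (adjusted p = 0.0106). VIT_213s0019g03170 went the other way, with -1.22 in LM-V from E-L 36 to E-L 38 (adjusted p = 0.00226).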

How the results depend on the processing

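No named gene changed sign in the comparisons that called it. The 5 members called in LR-V against C at E-L 37 were all lower, whereas the 3 of the rebuilt rule were all higher. LR-V against C: at E-L 36 the rebuilt rule called 8 (main 3; 2 to 4 with a library left out); at E-L 37 (main 5) scaling left 3, only the groups compared 0, the seed covariate 3, the rebuilt rule 3 (all small HSPs), no seed-rich libraries 2, and a left-out library 1 to 6; at E-L 38 (main 25) no seed-rich libraries left 9 (8 of them shared), and a left-out library 17 to 31. LM-V against C at E-L 36 had 4 by the rebuilt rule (main 0). LR-V against LM-V at E-L 38 (main 7) gave 0 with only the groups compared, 4 with the seed covariate, 1 without seed-rich libraries and 2 to 15 with a library left out; at E-L 36 it gave 0 to 1. Without the seed-rich libraries, which leaves 1 LR-V library at E-L 37 and 1 at E-L 38 with the spread of the other groups, the LR-V effect differed in 8 members from E-L 36 to E-L 37 (main 2), in 0 from E-L 37 to E-L 38 (main 7) and in 7 from E-L 36 to E-L 38 (main 11). A left-out library gave 11 to 18 for LM-V at E-L 38 (main 16), 22 to 28 and 40 to 52 for the C steps. With the replicate block the counts were 24 for LR-V and 14 for LM-V at E-L 38. The cause was not tested. Shares of all genes passing without the seed-rich libraries were not computed, so the lower counts there cannot be read as a result about the members. Of the 114 members, 23 did not reach the FPKM filter and were not tested, and limited depth and absent transcript cannot be told apart there.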

Other observations

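Outside the rule, the genes whose log2 level was most like the summed small HSP level over the 27 libraries were VIT_201s0127g00740 (r = 0.931), described as a chloroplast quinone oxidoreductase, VIT_205s0020g04040 (0.906), a chlorophyllase, VIT_206s0004g04810 (0.903), VIT_215s0046g03570 (0.90) and VIT_204s0023g03510 (0.892), a ferredoxin-NADP reductase. Taken within groups the values were 0.758, 0.567, 0.789, 0.716 and 0.618. These are descriptions over libraries that share stage, treatment and seed storage level.

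The seed storage pair also ran with 3 HSP70s, VIT_211s0037g00510, VIT_211s0037g00520 and VIT_205s0020g03330. Their within-group correlations with it over 27 libraries were 0.739, 0.705 and 0.723. The median was 0.028 over the 17 tested HSP70s and 0.138 over the 43 small HSPs.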
